A study of Mus musculus with 3 samples.

Results

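Guanylate-binding proteins (GBPs) and immunity-related GTPases (IRGs) are interferon-inducible GTPases of host defence, and 10 of them (Gbp2, Gbp3, Gbp4, Gbp5, Gbp6, Gbp7, Irgm1, Irgm2, Igtp and Iigp1) were followed here among 32285 measured genes. They were chosen by symbol as members of these families, with earlier results of these data known. Droplet sequencing of transcript 3' ends (10x Genomics) was used on single cells of the aortic arch. The cells were taken at its lesser curvature from the intima, the innermost layer of the vessel wall. All mice were wild-type C57BL/6J animals of both sexes, 12 to 13 weeks old. The aorta was perfused with actinomycin D, which stops new transcription, and the tissue was then digested briefly (collagenase D, DNase I). The groups were 2 libraries of untreated mice, called control 1 and control 2, and 1 library, called LPS, of mice that received lipopolysaccharide (LPS), a component of bacterial outer membranes, at 30 µg into a vein 18 h before harvest. Each library pooled 5 to 10 mice. A single LPS pool means that the treatment and that library cannot be told apart, and that the p-values rest on the spread between the 2 control pools, which may be technical.

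GBPs are large GTPases of the dynamin superfamily that assemble on the membranes of intracellular bacteria and of the vacuoles that hold parasites, and they promote inflammasome signalling. IRGs are smaller GTPases of the same defence. The regulatory IRGs (Irgm1, Irgm2 and Igtp, also called Irgm3) sit on the cell's own membranes and hold the effector IRGs, such as Iigp1 (Irga6), inactive there, so that the effectors load onto the pathogen's vacuole. Transcription of both families is switched on by interferons through STAT and IRF factors, which bind the interferon-stimulated response element (ISRE) and the gamma-activated sequence (GAS). LPS acts through Toll-like receptor 4, and macrophages answer it with type I interferon.

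In the GENCODE annotation of the GRCm38 build all 10 gene identifiers were matched. Gbp5 (chr3:142493978-142522344), Gbp7 (chr3:142530342-142550149), Gbp3 (chr3:142560026-142573209) and Gbp2 (chr3:142620602-142638008) lie side by side on the plus strand. Gbp4 (chr5:105115767-105139586) and Gbp6 (chr5:105270702-105293698) belong to a second cluster on the minus strand of chromosome 5. Irgm1 (chr11:48861968-48871683, minus strand), Igtp (chr11:58199556-58207591, plus strand) and Irgm2 (chr11:58199618-58222782, plus strand) are on chromosome 11. Igtp and Irgm2 overlap on the same strand, so a read in the overlap lies within the bounds of both genes. Of all 60-base words in the last 500 bases of the transcripts, where 3' reads fall, 87.3% of those of Gbp6 also occur in Gbp10, Gbp4, Gbp9 or Gm43302, and 11.1% of those of Gbp4 occur in its neighbours. The counts of Gbp6 are uncertain for that reason. The other 8 genes share at most 2.49% of such words with another gene.

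The promoters are shown because 7 members matched the RefSeq promoter table (GRCm38.p6, 250 bases before to 50 after the start of transcription), and all 7 hold an ISRE, here GAAANNGAAA on either strand. Such a match occurs in 3.44% of the 32851 promoter windows of the same length. A GAS, here TTCNNNGAA, which reads the same on both strands, occurs in 8.3% of all windows and in those of Gbp5, Gbp7, Igtp and Irgm2, and both motifs together occur in 0.454% of all windows. Each line runs 5′ to 3′ on the gene's own strand. Capitals mark the ISRE and GAS matches, which run together where they overlap. The stretches begin 180 bases before the start and stop where GENCODE places an exon. For Gbp2 and Irgm1, whose ISRE lies in such an exon, 30 bases around it are given. The positions are chr3:142496754-142496899 for Gbp5, chr3:142530156-142530335 for Gbp7, chr3:142559864-142560025 for Gbp3 and chr3:142620594-142620623 for Gbp2, all on the plus strand. They are chr11:48871428-48871457 on the minus strand for Irgm1, and chr11:58199376-58199555 for Igtp and chr11:58214797-58214976 for Irgm2 on the plus strand.
Gbp5: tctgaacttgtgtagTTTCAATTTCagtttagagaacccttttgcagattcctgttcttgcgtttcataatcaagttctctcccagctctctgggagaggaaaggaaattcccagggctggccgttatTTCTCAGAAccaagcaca
Gbp7: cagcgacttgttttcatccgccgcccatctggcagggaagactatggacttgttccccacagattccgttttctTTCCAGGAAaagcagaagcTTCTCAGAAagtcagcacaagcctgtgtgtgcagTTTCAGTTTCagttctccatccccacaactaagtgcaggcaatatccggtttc
Gbp3: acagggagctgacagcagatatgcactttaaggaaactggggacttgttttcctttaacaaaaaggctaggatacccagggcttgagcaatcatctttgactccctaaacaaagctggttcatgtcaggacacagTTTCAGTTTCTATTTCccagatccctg
Gbp2: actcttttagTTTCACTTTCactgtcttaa
Irgm1: gtttcaaGAAATAGAAACCGAAActgattc
Igtp: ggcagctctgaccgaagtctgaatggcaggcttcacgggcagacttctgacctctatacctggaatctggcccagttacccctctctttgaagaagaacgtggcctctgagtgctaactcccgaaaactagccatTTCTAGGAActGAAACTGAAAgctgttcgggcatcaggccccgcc
Irgm2: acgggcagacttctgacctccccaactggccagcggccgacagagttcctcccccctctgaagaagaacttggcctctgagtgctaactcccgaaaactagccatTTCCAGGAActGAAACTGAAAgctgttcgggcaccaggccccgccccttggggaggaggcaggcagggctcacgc
The ISRE begins 165 bases before the start in Gbp5, 53 in Gbp7, 59 in Gbp2, 34 in Igtp and 64 in Irgm2. Gbp3 and Irgm1 each carry a pair of overlapping matches, 45 and 39 bases before the start in Gbp3 and 30 and 24 in Irgm1. A second RefSeq start of Gbp3 has no match of either motif in its window. In Igtp and Irgm2 the GAS is followed by an ISRE that begins 11 bases further on. That spacing was noticed in the printed sequences and then counted, and 5 of 32851 windows hold it (0.0152%): those of Igtp, Irgm2, Tgtp1, Tgtp2 and Gm12185, all of them IRG genes or gene models. The printed stretches of Igtp and Irgm2 are nearly the same around the motifs, and Tgtp1 and Tgtp2 are near-identical genes. The 5 windows are therefore not independent cases. A match is a run of letters and no measurement of binding.

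**Figure D1:**
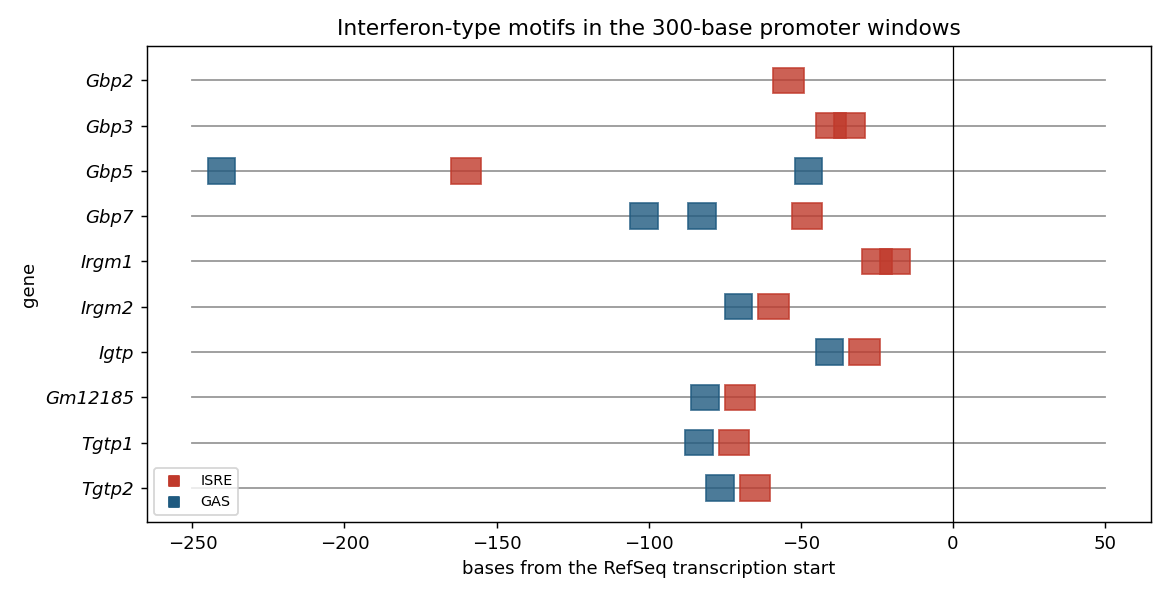
ISRE (red) and GAS (blue) matches in the promoter windows of the 7 matched members and of Gm12185, Tgtp1 and Tgtp2, by distance in bases from the RefSeq start of transcription. The 5 genes Irgm2, Igtp, Gm12185, Tgtp1 and Tgtp2 show a GAS directly before an ISRE, and the ISRE of 6 of the 7 members lies within 64 bases of the start.

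The libraries differed in depth and in what they held. They contained 1269, 4813 and 6000 barcodes with 4940996, 20069697 and 21864072 UMIs (unique molecular identifiers, which count captured RNA molecules) in control 1, control 2 and LPS, of which 431, 2697 and 5156 barcodes were kept. In the LPS library 3690 of the kept barcodes were near-empty, with a median of 1904 UMIs of which 55.7% of the sum came from the transcript Gm42418. Haemoglobin transcripts made up 44.0%, 7.91% and 25.2% of all UMIs. The libraries shared 2, 1 and 6 barcodes in the pairs control 1 with control 2, control 1 with LPS, and control 2 with LPS. Cells were grouped and named from marker genes, and 4 classes had at least 20 cells in each library. In control 1, control 2 and LPS these held 64, 123 and 158 cells (endothelial-like), 81, 210 and 201 (phagocyte-like), 25, 76 and 99 (fibroblast-like) and 159, 1661 and 106 (lymphoid-like). Levels are given as CPM, the UMIs of a gene in 1000000 UMIs of the class, which 3' counting makes independent of gene length. Endothelial markers such as Cdh5 and Pecam1 summed to 7394, 8316 and 5772 CPM in endothelial-like cells and to at most 670 in the other 3 classes. Lymphoid-like cells were mostly of thymocyte type: a UMI of Rag1, Rag2, Ptcra or Dntt, genes of developing T cells, was found in 83.6%, 89.6% and 52.8% of them. Intervals of levels are exact Poisson 95% intervals and cover counting error only.

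In untreated aortas the GTPases were most abundant in endothelial-like cells. The 10 members together reached 1150 and 1058 CPM there, against 126 and 292 in phagocyte-like, 173 and 278 in fibroblast-like and 286 and 319 in lymphoid-like cells of control 1 and control 2. Both endothelial-like values lay above all 6 values of the other classes. In a joint fit of the 4 classes with library as a block, the control level of 7 members was higher in endothelial-like than in phagocyte-like cells (edgeR quasi-likelihood test, Benjamini-Hochberg adjusted p under 0.05), where 10.3% of all 11038 genes tested were called higher. Against fibroblast-like cells 8 members were higher (all genes 4.65%), and against lymphoid-like cells 8 members (all genes 20.6%). No member was lower in endothelial-like cells in any of these comparisons. Without the endothelial-like sub-cluster led by the erythroid gene Alas2, an alternative chosen after seeing the data, the counts were 7, 6 and 8, and by DESeq2 they were 5, 1 and 7.

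Iigp1, the effector IRG, whose gene is on chromosome 18, had the largest control difference against phagocyte-like and lymphoid-like cells. Its level was 202 and 299 CPM in endothelial-like cells of control 1 and control 2. In phagocyte-like cells it was 0 in control 1, which allows up to 17.9, and 21.2 in control 2, and in lymphoid-like cells it was 5.85 and 20.4. The log2 difference was 4.21 ± 0.58 (SE) against phagocyte-like, 2.13 ± 0.55 against fibroblast-like and 4.39 ± 0.51 against lymphoid-like cells. Gbp4 had log2 differences of 3.46 ± 0.53, 3.42 ± 0.63 and 1.29 ± 0.41 in the same order. Its endothelial-like level differed between the controls, at 305 (95% interval 237 to 387) in control 1 and 105 (80.8 to 133) in control 2, so these intervals do not overlap. Gbp5, Gbp7 and Gbp2 were higher in endothelial-like cells than in each of the other tested classes as well. In mesothelial-like cells, too few for a test, Gbp2 measured 214 and 236 CPM in control 1 and control 2. Those values lay above its endothelial-like levels of 130.3 and 162, with overlapping intervals. Gbp5 and Gbp7 were lower there than in endothelial-like cells in both controls.

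For 5 members the endothelial-like level did not pass in every comparison. Gbp6 and Igtp had log2 differences of -0.24 ± 0.47 and 0.17 ± 0.42 between endothelial-like and lymphoid-like cells, and neither passed. Gbp6 did not pass against fibroblast-like cells either (1.85 ± 0.86, edgeR adjusted p = 0.216). Igtp measured 44.9 and 71.3 CPM in endothelial-like cells and 57.3 and 54.0 in lymphoid-like cells, and these values overlap. Gbp3 and Irgm1 did not pass against phagocyte-like cells (log2 differences 0.51 ± 0.47 and 0.68 ± 0.49), and Irgm2 passed only against lymphoid-like cells (2.57 ± 0.47).

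**Figure D2:**
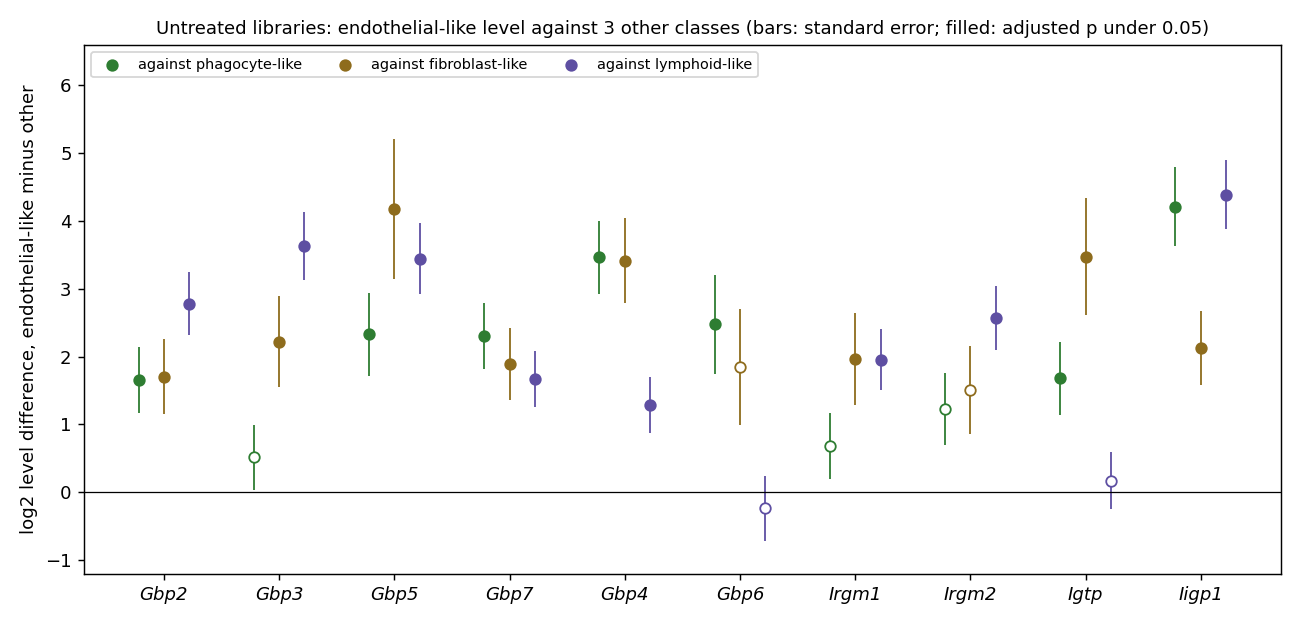
Difference of the log2 level of each member in untreated libraries, endothelial-like minus phagocyte-like (green), fibroblast-like (brown) and lymphoid-like (purple) cells, with standard errors; filled points passed the adjusted test. All differences are positive except that of Gbp6 against lymphoid-like cells, and Iigp1 exceeds 4 against phagocyte-like and lymphoid-like cells.

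With LPS the GTPases rose in all 4 classes. In endothelial-like cells the 10 members together went from 1150 and 1058 to 6574 CPM, 5.72 and 6.22 times the controls, and made up 0.657% of all UMIs of the class. Of the 10, 9 passed the test as higher, none was lower, and Irgm2 did not pass, where 8.08% of all 8581 genes tested were called higher and 7.66% lower. All 10 were above both controls, as were 38.3% of all genes tested. The median log2 fold change of the members was 2.59, beside -0.01 over all genes. LPS cells and control cells of this class fell into different sub-clusters: the 6 that held the LPS cells, led by Stab1, Meg3, Csf3, Ccl2 and Ramp2, held no control cell.

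Among the GBPs of chromosome 3, Gbp2, which coats parasite vacuoles, had the highest endothelial-like level with LPS. It measured 130.3 and 162 CPM in control 1 and control 2 and 1214 (1163 to 1268) with LPS, a log2 fold change of 3.11 ± 0.40 (edgeR adjusted p = 1.45e-12). Gbp5, a promoter of NLRP3 inflammasome assembly, measured 44.9 and 52.3 and then 457, a log2 fold change of 3.28 ± 0.42. The LPS value of both genes lay far outside the control intervals. Gbp3 went from 71.9 and 72.8 to 435 CPM (log2 fold change 2.66 ± 0.41). Gbp7 had the highest level of the 4 in control 1, at 220.1 CPM, but lay below Gbp2 in control 2, at 131. With LPS it reached 609, a log2 fold change of 1.90 ± 0.40. That was the smallest fitted change among the 6 GBPs in this class.

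On chromosome 5, Gbp4 rose from 305 and 105 CPM to 1083 with LPS (log2 fold change 2.51 ± 0.40), so the size of its change differed by which control it is read against. Gbp6 went from 18.0 and 36.4 to 396, the largest fitted change of the family in this class at 3.79 ± 0.44, with the shared 3' sequence given above.

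Of the regulatory IRGs, Igtp and Irgm1 passed and Irgm2 did not. Igtp measured 44.9 and 71.3 CPM in the controls and 266 with LPS (log2 fold change 2.20 ± 0.41). Irgm1 measured 44.9 and 74.4 and then 168 (148.6 to 188), a log2 fold change of 1.48 ± 0.41 with an edgeR adjusted p of 0.0033. Irgm2 had 67.4 and 53.8 CPM in the controls and 106 (90.7 to 122) with LPS, and its log2 fold change of 0.92 ± 0.41 did not pass (edgeR adjusted p = 0.115). Its LPS interval overlaps that of control 1. The effector Iigp1 rose from 202 and 299 to 1839 CPM, a log2 fold change of 2.93 ± 0.39, and was the most abundant member in the LPS library. The 3 leading members of this class with LPS, Iigp1, Gbp2 and Gbp4, had intervals that do not overlap each other.

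Within the LPS endothelial-like cells the members differed between sub-clusters, which share 1 library. Their sum ran from 3156 CPM in 25 cells led by Csf3 and Adamts4, with the adhesion molecules Sele and Selp among the leading genes, to 11192 in 29 cells led by Meg3, Xist and Stab1. Gbp4 spanned 429 to 3228 CPM between these sub-clusters and Gbp2 594 to 1314. Gbp4 is among the leading genes of the second sub-cluster, so its level there is a description. Irgm2 varied least, from 84.2 to 118 CPM over all 6. The endothelial-like count depends on the fit. Without a filter on low counts the spread was estimated with less sharing across genes, and 0 members passed (edgeR), although all 10 had an unadjusted p under 0.05. By DESeq2, 7 members passed.

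**Figure D3:**
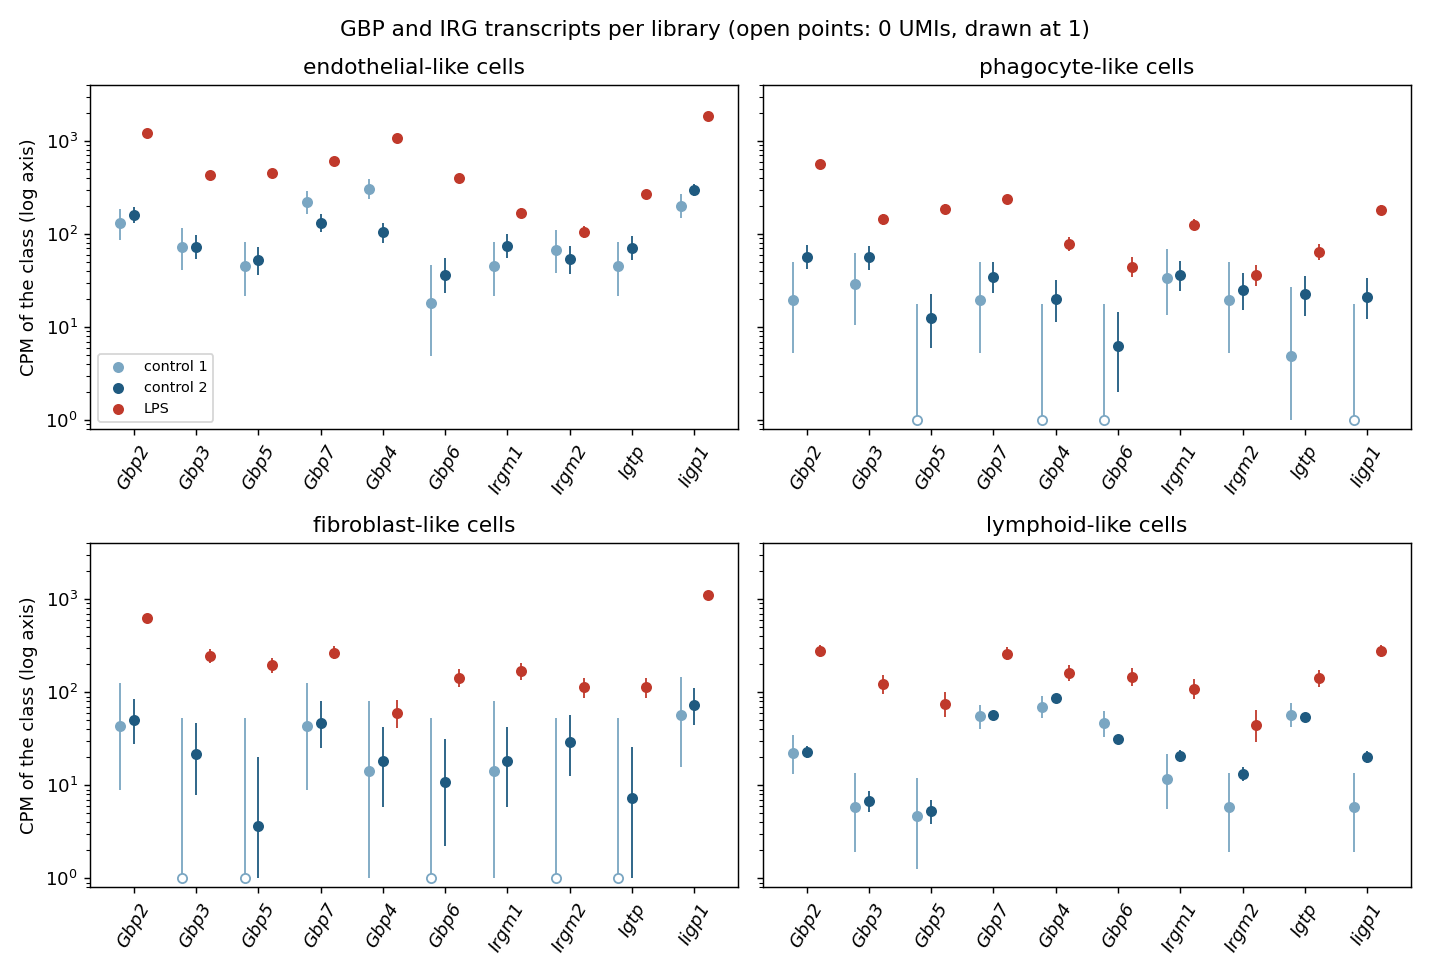
Level of each member in CPM (log axis) in control 1 (light blue), control 2 (dark blue) and LPS (red), with exact Poisson 95% intervals; open points at 1 mark libraries with 0 UMIs. In each of the 4 classes the LPS point lies above both control points for all 10 members. The LPS interval overlaps a control interval for Irgm2 in phagocyte-like and endothelial-like cells and for Gbp4 in fibroblast-like cells.

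In phagocyte-like cells, named from macrophage, dendritic and monocyte markers, the members together went from 126 and 292 to 1664 CPM, and 9 of 10 rose, all but Irgm2. Of all 8883 genes tested 3.74% were called higher and 2.68% lower. All 10 members were above both controls, as were 35.8% of all genes. The median log2 fold change of the members was 2.83, beside -0.03 over all genes, and it was 4.04 without control 2 and 2.54 without control 1.

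Gbp2 was again the leading GBP, with 19.4 and 57.4 CPM in the controls and 560.1 with LPS (log2 fold change 3.80 ± 0.60). Gbp5 had the largest fitted change, from 0 in control 1, which allows up to 17.9, and 12.5 in control 2 to 188 (4.45 ± 0.64). Gbp7 went from 19.4 and 34.9 to 239 CPM (3.09 ± 0.58). For these 3 genes the LPS interval lay above both control intervals. Gbp3 changed least of the GBPs here, from 29.1 and 56.1 to 144 (1.73 ± 0.55). Gbp4 and Gbp6, both at 0 UMIs in control 1, reached 79.0 and 44.5 with LPS from 19.95 and 6.24 in control 2. Iigp1 reached 182 CPM with LPS (3.71 ± 0.60). Irgm1 and Igtp passed with log2 fold changes of 1.89 ± 0.56 and 1.99 ± 0.59. Irgm2 measured 19.4 and 24.9 in the controls and 36.4 with LPS, and its log2 fold change of 0.73 ± 0.62 did not pass (edgeR adjusted p = 0.723).

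Neutrophil markers summed to 14.5, 18.7 and 515 CPM in phagocyte-like cells of control 1, control 2 and LPS, and macrophage markers to 7114, 11463 and 4807. The marker levels of the class thus differed between the LPS library and the controls. Whether its makeup changed, and what part that had in the result, was not tested. Of the 201 LPS cells, 72, 38 and 24 sat in 3 sub-clusters without control cells, and 7 in each of 3 others without control cells. The count of 9 varied with the processing: it was 2 by DESeq2, 4 with at least 1000 UMIs per barcode, and 0 with at most 10% mitochondrial UMIs (edgeR), where 8 members had an unadjusted p under 0.05.

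In fibroblast-like cells the members went from 173 and 278 to 3030 CPM together, 17.6 and 10.9 times the controls. Of the 10, 9 rose and Gbp4 did not pass. Of all 5404 genes tested 8.03% were called higher and 5.22% lower. All 10 members were above both controls, as were 39.3% of all genes. The median log2 fold change was 4.09, beside 0.03 over all genes. It was 6.26 without control 2, whose removal leaves the 25 fibroblast-like cells of control 1 as the only control, and 3.80 without control 1.

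Iigp1 led this class, with 57.5 and 72.3 CPM in the controls and 1099 with LPS, a log2 fold change of 4.34 ± 0.48. Gbp2 went from 43.2 and 50.6 to 626 (4.01 ± 0.50) and Gbp7 from 43.2 and 47.0 to 267 (2.86 ± 0.51). Control counts of several members were very low. Gbp5 had 0 and 1 UMI in the controls and 115 with LPS, a ratio of pooled levels of 68.1 with a counting interval of 12.0 to 2711. Gbp6 had 0 and 3 control UMIs and 83 with LPS, a ratio of 16.4 (5.41 to 81.0). Igtp had 0 and 2 control UMIs and 66 with LPS, a ratio of 19.5 (5.20 to 165). The lower ends of these intervals all lie above a ratio of 5. Gbp3 rose from 0 and 21.7 CPM to 246. The regulatory IRGs Irgm1 and Irgm2 passed as well: Irgm1 went from 14.4 and 18.1 to 168 CPM (3.58 ± 0.62), and Irgm2 from 0 and 28.9 to 113 (2.67 ± 0.65). Gbp4 was the exception, at 14.4 and 18.1 in the controls and 59.8 with LPS, a log2 fold change of 2.11 ± 0.82 (edgeR adjusted p = 0.0707). DESeq2 called 3 members, and 0 passed without a filter on low counts (edgeR), where all 10 had an unadjusted p under 0.05. The LPS cells fell into 4 sub-clusters that held no control cell.

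In lymphoid-like cells the members together measured 286, 319 and 1619 CPM, 5.67 and 5.08 times the controls with LPS, and 6 of 10 rose: Gbp2, Gbp3, Gbp5, Gbp7, Irgm1 and Iigp1. Of all 9063 genes tested 0.949% were called higher and 0.0993% lower, so few genes passed in this class. All 10 members were above both controls, as were 36.8% of all genes. The median log2 fold change was 2.59, beside -0.10 over all genes. The summed levels of the 2 controls lay closer to each other here than in phagocyte-like or fibroblast-like cells.

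Gbp3 had the largest fitted change, from 5.85 and 6.80 to 123 CPM (4.40 ± 0.31), with Iigp1, at 5.85 and 20.4 and then 279, next (4.37 ± 0.52). Gbp5 went from 4.68 and 5.26 to 74.8 CPM (4.04 ± 0.37). Gbp2 matched the LPS level of Iigp1, at 279 from 22.2 and 22.9 (3.77 ± 0.26). These 4 genes were low in untreated lymphoid-like cells. Their estimated share of free RNA, transcripts from outside the cell, is given by gene further below. The 4 members that did not pass also had LPS values above both controls. Gbp4 was the most abundant member in untreated lymphoid-like cells, at 70.2 and 87.8, and reached 161 (1.16 ± 0.26, edgeR adjusted p = 0.132). Igtp went from 57.3 and 54.0 to 141 (1.48 ± 0.28), Gbp6 from 46.8 and 31.2 to 146 (2.07 ± 0.39), and Irgm2 from 5.85 and 13.3 to 44.9 (2.26 ± 0.53). The share of cells of thymocyte type was lower in the LPS library, as given above, and its part in the result was tested only by leaving those barcodes out. Without barcodes that held a thymocyte gene, 4 members passed and the median log2 fold change was 2.77. The count was 0 (edgeR) with cells gated by marker counts, where all 10 members had an unadjusted p under 0.05, and 10 without a filter on low counts.

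**Figure D4:**
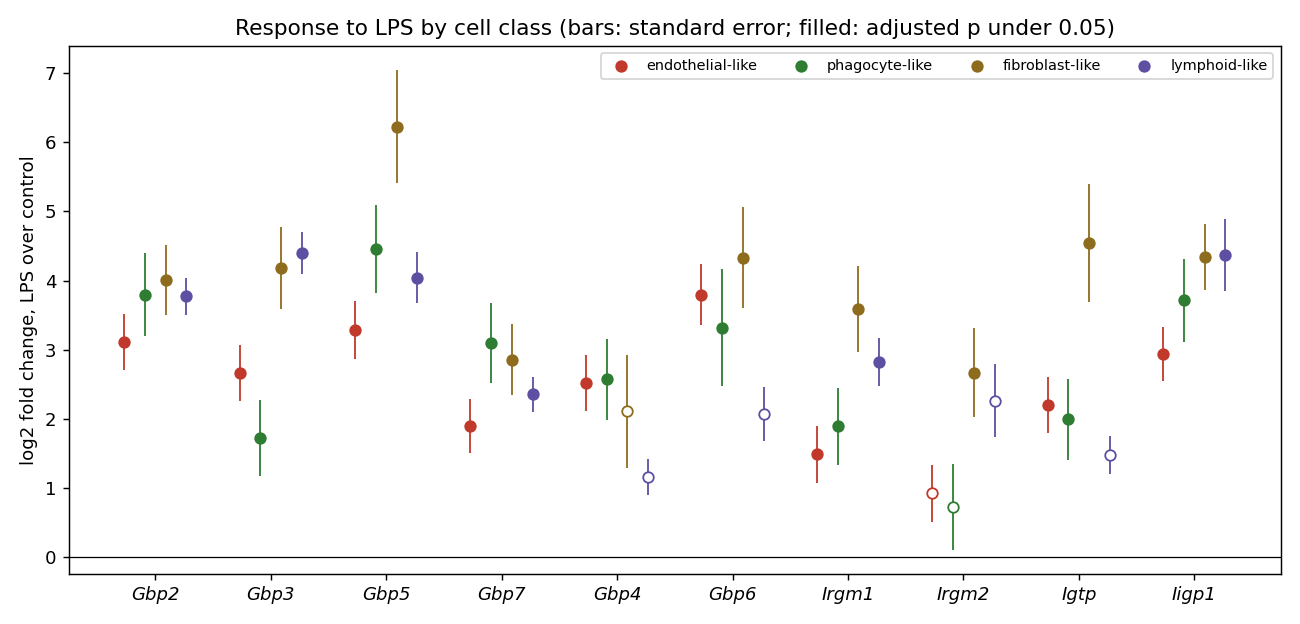
Fitted log2 fold change of each member, LPS over control, with standard errors in endothelial-like (red), phagocyte-like (green), fibroblast-like (brown) and lymphoid-like (purple) cells; filled points passed the adjusted test. All 40 values are above 0, from 0.73 for Irgm2 in phagocyte-like cells to 6.23 for Gbp5 in fibroblast-like cells.

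The responses were not shown to differ between classes. In the joint fit the interaction of class with LPS was called for 0 of 10 members in each contrast by edgeR and by DESeq2. Of all 11038 genes 0.924% were called between endothelial-like and phagocyte-like cells, 0.272% between endothelial-like and fibroblast-like cells and 1.03% between endothelial-like and lymphoid-like cells. By edgeR 0, 5 and 5 members had an unadjusted p under 0.05 in that order, and by DESeq2 0, 2 and 2. Against fibroblast-like cells the difference was negative, a larger fold in fibroblast-like cells, for 9 of 10 members. It was -3.15 ± 1.28 for Gbp5 and -2.15 ± 0.86 for Irgm1, with an edgeR adjusted p of 0.689 for both. Against lymphoid-like cells Gbp6 and Gbp4 had a larger fold in endothelial-like cells (1.65 ± 0.69 and 1.43 ± 0.69), and Gbp3 and Iigp1 a larger fold in lymphoid-like cells (-1.84 ± 0.71 and -1.70 ± 0.75). These standard errors leave room for differences of several fold, so the test does not show that the classes respond alike.

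With LPS the summed level was again highest in endothelial-like cells among the 4 classes. Relative to the summed level in endothelial-like cells, that of fibroblast-like cells was 46.1%, of phagocyte-like cells 25.3% and of lymphoid-like cells 24.6%. The last pair differ little. Gbp4 was at 1083 CPM in endothelial-like cells with LPS, at 161 in lymphoid-like, at 79.0 in phagocyte-like and at 59.8 in fibroblast-like cells, and the intervals of the last pair overlap (65.9 to 94.0 and 41.7 to 83.2).

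The same rise was seen as a share of cells. Cells were thinned to 1000 UMIs each, leaving out 19 of 64 endothelial-like cells of control 1, 29 of 81 phagocyte-like, 11 of 25 fibroblast-like and 2 of 159 lymphoid-like cells of that library and none of the others in these classes. A UMI of any of the 10 members was then found in 48.9% and 44.7% of endothelial-like cells of the controls and in 93.0% with LPS. In fibroblast-like cells the shares were 14.3%, 28.9% and 90.9%, in phagocyte-like cells 1.92%, 25.2% and 80.1%, and in lymphoid-like cells 25.5%, 27.8% and 75.5%. In all 4 classes the exact binomial interval with LPS lies above both control intervals. Unthinned, the endothelial-like shares were 59.4% and 74.8% in the controls, and all 158 LPS cells held one, at median depths of 1291, 2748 and 6515 UMIs. The median endothelial-like cell with LPS held 3 different members among its 1000 UMIs and the highest 9, against a median of 0 in both controls. At least 3 members were found in 63.3% of LPS endothelial-like cells, and in 11.1% and 5.69% of control ones. By gene, Iigp1 was found in 64.6% of the thinned LPS endothelial-like cells, Gbp2 in 52.5% and Gbp4 in 50.6%, down to 5.06% for Irgm2.

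Free RNA bears on these shares. Erythroid-like barcodes were taken to lack these transcripts of their own, which was not tested. They held a member UMI in 0 of 5 thinned cells of control 1, in 7.99% of control 2 and in 42.2% with LPS. Their summed level was 455 CPM with LPS against 32.9 and 84.7 in the controls (median depths 947, 4804 and 8264 UMIs). The control 1 value rests on 2 member UMIs in 12 barcodes. All 10 members had a higher thinned share in each of the 4 classes than in the erythroid-like barcodes of the LPS library. Haemoglobin made up 52.2% to 89.2% of the UMIs of the sub-clusters that held those barcodes. That left fewer of their 1000 UMIs for other transcripts, so this comparison cannot show that the classes exceed free RNA. To size the free RNA, the ratio of the members to smooth muscle markers was compared, since 1 source should keep that ratio. In the LPS library the members measured 1144 CPM for each 1000 CPM of smooth muscle markers in erythroid-like barcodes and 1139 in near-empty ones. The ratio was 15501 in endothelial-like, 4978 in fibroblast-like, 3759 in phagocyte-like and 2799 in lymphoid-like cells. On that scale free RNA would supply 7.38% of the members' LPS UMIs in endothelial-like cells, 23.0% in fibroblast-like, 30.4% in phagocyte-like and 40.9% in lymphoid-like cells. With that estimate subtracted, an alternative chosen after seeing the data, 9, 9, 6 and 10 members passed in the same order of classes. By gene, the estimate in lymphoid-like cells with LPS was 68.5% for Gbp2, 64.0% for Gbp3, 62.0% for Gbp5 and 44.2% for Iigp1. In lymphoid-like cells of control 2 it was 59.9%, 62.1%, 20.05% and 67.3% for the same genes. With LPS it was 80.35% for Gbp4 in fibroblast-like cells, and 63.5% for Gbp6 and 51.9% for Iigp1 in phagocyte-like cells.

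**Figure D5:**
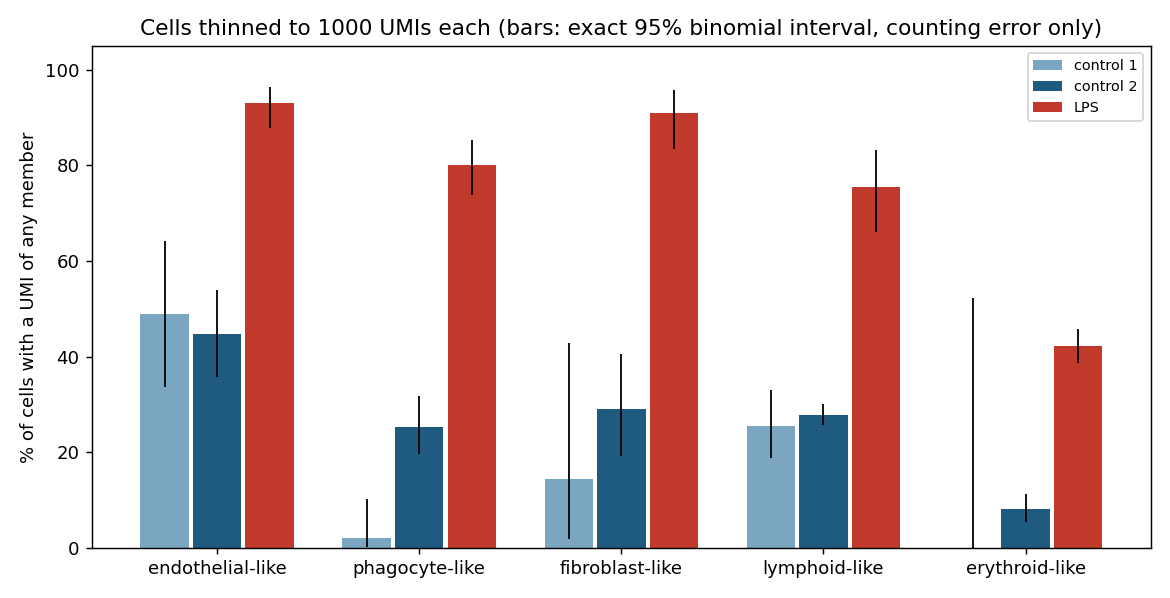
Share of cells with a UMI of any of the 10 members after thinning to 1000 UMIs per cell, in control 1 (light blue), control 2 (dark blue) and LPS (red), with exact 95% binomial intervals for counting error. LPS bars stand at 75.5% to 93.0% in the 4 tested classes and at 42.2% in erythroid-like barcodes, where most UMIs were haemoglobin.

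Classes too small for a test showed the same order of values. Mesothelial-like cells (18, 19 and 34) had summed levels of 642, 890.4 and 3264 CPM in control 1, control 2 and LPS. B cell-like cells (6, 17 and 15) had 198, 246 and 1867. Neutrophil-like cells had 1237 in 35 LPS cells, against 494 in 3 and 0 in 1 control cell. The highest value of any class was 7627 CPM in 11 adipocyte-like cells with LPS, against 135 in 14 of control 2.

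Other genes of the pathway were read from lists, by the number of measured genes that passed in each direction. Of the other IRG and GBP genes 8 of 9 tested rose in endothelial-like cells (all genes 8.08%) and none fell, with a median log2 fold change of 2.18. In phagocyte-like cells 2 of 7 rose (Gbp9 and Ifi47, all genes 3.74%), in fibroblast-like cells 5 of 5 (all genes 8.03%), and in lymphoid-like cells 2 of 9 (Gbp9 and 9930111J21Rik2, all genes 0.949%), and none fell. The largest endothelial-like changes were those of Tgtp1, Tgtp2 and Gvin1. Tgtp1 and Tgtp2 are near-identical effector IRGs between which reads can be misassigned, and they measured 2 control UMIs in all against 58 with LPS, and 6 against 98. Tgtp1 had a ratio of pooled levels of 14.6 (counting interval 3.87 to 124), and Tgtp2 a log2 fold change of 3.09 ± 0.59. Gvin1, a very large interferon-inducible GTPase, had a log2 fold change of 2.61 ± 0.66. DESeq2 called 0 of these other IRG and GBP genes in endothelial-like, in phagocyte-like and in fibroblast-like cells, and 2 in lymphoid-like cells, so the calls rest on the edgeR test. The 5 fibroblast-like genes were Gbp9, Gm4951, F830016B08Rik, Ifi47 and 9930111J21Rik2, named because they are so few.

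Of the interferon signalling genes upstream, 6 of 15 rose in endothelial-like cells (all genes 8.08%), 3 of 18 in phagocyte-like (3.74%), 5 of 13 in fibroblast-like (8.03%) and 5 of 17 in lymphoid-like cells (0.949%). As these shares differ, the counts are not compared between classes. DESeq2 called 1, 2, 1 and 4 of them. Irf7, the amplifier of type I interferon transcription, rose in all 4 classes. It measured 9.35, 21.5 and 409 scaled CPM in endothelial-like cells of control 1, control 2 and LPS (log2 fold change 4.51 ± 0.47). Batf2 had 1 control UMI and 76 with LPS in endothelial-like cells, a ratio of 38.3 (6.67 to 1532), and Stat2, a subunit of the ISRE-binding complex, had a log2 fold change of 2.10 ± 0.43. Irf9, the DNA-binding subunit of that complex, rose in endothelial-like, fibroblast-like and lymphoid-like cells. Stat2 and Ifnar2 rose in fibroblast-like cells, and Irf1 and Irf8 in lymphoid-like cells only by this test, with no test of the difference between classes. In phagocyte-like cells Jak2 and the feedback inhibitor Socs1 rose too, and Ciita, the master activator of MHC class II genes, was the 1 gene of the list to fall (log2 fold change -3.86 ± 0.71). Those named beyond Irf7, Batf2 and Stat2 were picked after their values were seen.

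The counts of the downstream lists stand beside the shares of all genes, which were 8.08% higher and 7.66% lower in endothelial-like cells, 3.74% and 2.68% in phagocyte-like, 8.03% and 5.22% in fibroblast-like and 0.949% and 0.0993% in lymphoid-like cells. With so few genes tested, nothing is read from these counts about the lists. Of the inflammasome and pyroptosis genes, Casp4, which encodes the caspase that senses LPS in the cytosol, rose in endothelial-like, phagocyte-like and fibroblast-like cells. In endothelial-like cells it measured 37.4 and 53.8 scaled CPM in the controls and 246 with LPS (log2 fold change 2.35 ± 0.42), the 1 gene of 5 tested to pass. In phagocyte-like cells 3 of 11 rose (with Pycard and Ninj1) and in fibroblast-like cells 1 of 3, none of which DESeq2 called, and in lymphoid-like cells 0 of 6 passed by edgeR or DESeq2 (2 with an unadjusted edgeR p under 0.05). The ubiquitin-like conjugation and autophagy genes, whose products guide GBPs and IRGs to vacuoles, gave 1 higher and 2 lower of 14 in endothelial-like cells. Atg3, which conjugates LC3-family proteins to lipid, rose (log2 fold change 1.13 ± 0.42), and the LC3-family genes Map1lc3a (-1.68 ± 0.44) and Gabarapl1 (-1.22 ± 0.42) fell, and DESeq2 called none of the 3. The other classes gave 0 of 14, 1 of 9 (Map1lc3b, higher in fibroblast-like cells) and 0 of 15, where 1, 1 and 2 genes had an unadjusted edgeR p under 0.05 and DESeq2 called none. Of the prenylation and trafficking genes, among them Fnta and Pggt1b for the lipid anchor that GBPs such as Gbp2 and Gbp5 carry and Rab7 and Lamp1 of late endosomes and lysosomes, 0 of 9, 0 of 8, 0 of 7 and 0 of 10 passed by edgeR or DESeq2 in the 4 classes, with 2, 0, 0 and 0 at an unadjusted edgeR p under 0.05. Their medians were 0.14, 0.15, 0.20 and -0.25. Motifs, read without chromosome 18, differed between the lists too. Of the other IRG and GBP genes 6 of 8 promoter entries hold the ISRE, against 3 of 19 of the upstream genes and 0 of 12 of the inflammasome genes.

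Over the 12 sums of class and library, the genes whose log2 level ran most like the mean of the 10 members were, outside these lists and among 8199 genes, Cxcl1 (Pearson r = 0.97), Rnd1 (0.95), Cmpk2 (0.95), Ptgs2 (0.94), Mybbp1a (0.94) and Selp (0.92). These sums share 3 libraries and their depths, so r is a description. Cxcl1, a neutrophil-attracting chemokine, measured 35.9 and 49.1 CPM in endothelial-like cells of the controls and 1090.0 with LPS, and Selp, the adhesion molecule P-selectin, 319, 209 and 3327. Both were at most 34.9 CPM in the other 3 classes of the controls.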

How the data were processed

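The authors deposited raw UMI counts for each gene in each barcode. The mm10 assembly, Cell Ranger 3.1, Seurat 4.2.0 and R 4.2.1 were used, per the submitters' processing notes. The selection of barcodes and the annotation release were not given in the sources used here. The smallest barcode held 501, 1117 and 1750 UMIs in control 1, control 2 and LPS, so barcodes were selected at different depths. The controls carry no replicate number in the labels and are numbered in record order. The 10 members, the gene lists, the markers and the alternatives were chosen with earlier results of these data known.

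Computed here were the cell classes, the sums and the tests. Barcodes of at least 500 UMIs and 300 genes, and no more than 15% mitochondrial UMIs, were kept and clustered without batch integration (scanpy 1.11.5, 2000 variable genes, 30 principal components, 15 neighbours, Leiden resolution 1.0) and clustered again within each cluster of at least 40 barcodes. Sub-clusters were named from markers of 17 cell types. This second step and the naming thresholds were settled after seeing the data, over several tries. No doublet caller was run, and gating by marker counts is the alternative. Near-empty barcodes belong to sub-clusters with at least 40% Gm42418.

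UMIs were summed per library and class and tested with edgeR 4.0.16 (quasi-likelihood, TMM factors, filterByExpr, Benjamini-Hochberg at 0.05 over all genes tested, R 4.3.3). With 2 controls against 1, a single residual degree of freedom is shared across genes, and LPS is taken to vary as much as the controls do. The joint fit of 12 sums has library as a block and 3 residual degrees of freedom. The fits were run on simulated counts in which every gene had the same spread and LPS varied as the controls did. That simulation does not cover how the number of calls depends on the filter and the choice of cells. DESeq2 1.42.0 was an alternative. CPM levels use raw UMIs, while "scaled" ones use TMM factors. For a count of 0 the upper end of the exact Poisson interval is given. Free RNA was sized from smooth muscle markers in erythroid-like barcodes, which were taken to make no member transcripts themselves. From each list up to 3 genes were named, those with the largest absolute change that passed in endothelial-like cells. The values of 1 listed gene are not reported here.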

Additional observations from a re-analysis of the deposited data

Results flagged for a closer look

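Transcripts of the GTPases were also found in barcodes outside the tested classes. Near-empty barcodes of the LPS library, 3690 with 55.7% Gm42418, held the 10 members at 2772 CPM in sum, against 239.8 in 4 such barcodes of control 1 and 304 in 1 of control 2. For each 1000 CPM of smooth muscle markers, the members measured 1139 CPM in near-empty LPS barcodes. The value was 1144 in the erythroid-like ones, from which free RNA was sized. Whether the transcripts in near-empty barcodes were free RNA was not tested. Barcodes left without a name held 4138 CPM in 40 LPS cells, against 106 in 25 cells of control 1 and 182 in 181 of control 2. Of these unnamed LPS cells, 31 came from 1 sub-cluster whose best match was endothelial and which fell short of the naming threshold.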

How the results depend on the processing

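All 464 values of single members under the alternatives were above 0. Of these, 346 kept their side of the threshold or moved by less than the control spread, 77 no longer passed, 9 passed newly and 32, from leaving out a control, moved further. Counts of members that passed changed as follows. Without a filter on low counts they were 0 in endothelial-like and 0 in fibroblast-like cells (edgeR prior degrees of freedom went from infinite to 3.12 and 2.22, and all 10 members had an unadjusted p under 0.05) and 10 in lymphoid-like cells (from 4.01 to infinite). By DESeq2 they were 2 in phagocyte-like and 3 in fibroblast-like cells, and 1 for the control level against fibroblast-like cells. With at least 1000 UMIs they were 4 in phagocyte-like and 3 in lymphoid-like cells. With at most 10% mitochondrial UMIs the phagocyte-like count was 0 (prior 3.21), and with gated classes the lymphoid-like count was 0 (prior 3.07). With the free RNA upper bound subtracted they were 5 and 3, with the smooth muscle scaling 10 in lymphoid-like cells, and under 20% Gm42418 4 in phagocyte-like cells. The prior is given as a description, and the cause of these changes was not tested. The number of all genes called also varied. It was 1350 in endothelial-like cells (272 by DESeq2, 815 gated, 0 without the filter) and 716 in fibroblast-like cells (99 by DESeq2, 0 without the filter). It was 570 in phagocyte-like cells (84 by DESeq2, 328 gated, 239 at 1000 UMIs, 0 at 10% mitochondrial UMIs, 259 with the free RNA bound, 346 with the smooth muscle scaling). In lymphoid-like cells it was 95 (167 by DESeq2, 1037 without the filter, 0 gated, 59 at 1000 UMIs, 356 at 10% mitochondrial UMIs, 53 with the free RNA bound, 1010 with the smooth muscle scaling).

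The endothelial-like median log2 fold change of 2.59 was 2.57 with DESeq2 size factors, 2.54 by DESeq2, 2.68 without the filter, 2.66 with at most 10% mitochondrial UMIs, 2.48 with the free RNA bound, 2.43 with the smooth muscle scaling, 2.53 without the sub-cluster led by Alas2 and 2.50 under 20% Gm42418. The phagocyte-like median was 3.51 with the smooth muscle scaling (9 members tested), and the lymphoid-like one was 2.77 both with at most 10% mitochondrial UMIs and without thymocyte barcodes. Leaving out 1 control gave 2.53 to 2.69 in endothelial-like, 2.54 to 4.04 in phagocyte-like, 3.80 to 6.26 in fibroblast-like and 2.61 to 3.12 in lymphoid-like cells, with no test. The smooth muscle scaling and the alternatives without Alas2-led cells, without Gm42418 and haemoglobin UMIs and under 20% Gm42418 were chosen after seeing the data. Fibroblast-like and joint fits were not run at 1000 UMIs, 10% mitochondrial UMIs and 20% Gm42418, which left 14, 19 and 4 cells. No paired analysis was possible because there is 1 LPS library and the labels give no replicate numbers.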
